A study of Mus musculus with 15 samples.

Results

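The genes described here are the transcription factor genes Stat3, Stat5a and Stat5b and 7 genes that their products are known to control or that feed back on them: Cish, Socs1, Socs2, Socs3, Pim1, Osm and Bcl6. They were chosen as a fixed list of symbols, 10 of the 45706 genes in the count table. RNA sequencing was done on lineage-negative bone marrow cells, that is, cells depleted by magnetic sorting of those that carry mature blood cell markers, taken from femurs of mice 16 weeks after secondary transplantation of LSK cells (a fraction enriched in stem cells). Donors were young adult C57BL/6J mice of 4 germline genotypes, and every recipient was a lethally irradiated CD45.1+ mouse. WT (3 libraries) carried neither deletion, Puma-/- (4 libraries) lacked the proapoptotic gene Puma, G3 mTerc-/-Puma+/+ (4 libraries) was the third generation lacking the telomerase RNA gene mTerc, and G3 mTerc-/-Puma-/- (4 libraries) was labelled as lacking both. The last are called the double-labelled libraries. Comparing the telomerase-deficient genotypes with and without Puma, with WT and Puma-/- as controls, was the purpose of the RNA sequencing. A gate on donor cells for this sort is not given in the sources used here, so host cells may be among them.

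STAT proteins wait in the cytoplasm until a cytokine binds its receptor and a receptor-bound Janus kinase phosphorylates them. They then pair, enter the nucleus and bind DNA. STAT5A and STAT5B carry the signals of erythropoietin, thrombopoietin, interleukin-3 and GM-CSF in blood progenitors, and STAT3 those of G-CSF and the interleukin-6 family. Among their targets are the SOCS family genes, including Cish, whose products shut the receptors down again, so that the level of these transcripts is often read as a trace of recent STAT activity. The level of the STAT transcripts themselves does not report phosphorylation, which was not measured here.

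The depth was high, with 102790519 to 158367059 counts per library (median 112046464). All 10 members passed the filter on low counts that left 18983 genes for testing, and their counts ranged from 282 upward, so counting error was small beside the differences between libraries. Values are given as normalized CPM, the share of a library's counts after scaling by trimmed-mean factors. Fold changes are on the log2 scale, from the quasi-likelihood model of edgeR, and adjusted p-values cover all genes tested (Benjamini-Hochberg). The tests used 14 libraries. Replicate 2 of the double-labelled libraries, which the study did not draw in its heatmaps, was kept apart and is given separately. Bbc3, the gene of PUMA, lay at 5.02 to 6.80 normalized CPM in Puma-/-, at 9.67 to 23.5 in WT and at 11.7 to 20.7 in G3 mTerc-/-Puma+/+. In the double-labelled libraries tested it lay at 13.5 to 17.0. The lower Bbc3 level of Puma-/- was thus not seen there, which is why these libraries are named by their label. Reads outside the deleted part of the gene would still be counted, in Puma-/- as in the double-labelled libraries. Why the Bbc3 levels of these genotypes differed was not tested. Terc had 7 to 17 counts in WT, 4 to 11 in Puma-/- and at most 1 count in each mTerc-/- library. The myeloid progenitor genes Mpo, Elane, Prtn3 and Ctsg were detected in every library, with summed levels from 12460 to 26320 normalized CPM. Xist lay at 464 to 865 normalized CPM in Puma-/- and at 0.176 to 88.6 in G3 mTerc-/-Puma+/+, while Ddx3y, a gene of the Y chromosome, lay at 0.0177 to 0.0446 and at 42.6 to 48.0. In WT Xist lay at 417, 211 and 1.72 and Ddx3y at 21.2, 26.4 and 43.0. In replicates 1 to 4 of the double-labelled libraries Xist lay at 660, 89.4, 0.386 and 443 and Ddx3y at 2.87, 38.9, 45.9 and 4.25. Libraries of these genotypes thus differed among themselves, and some, such as WT replicate 1, held both transcripts. The labels do not say that libraries came from separate mice, so p-values measure only the spread between these libraries. Libraries of 1 genotype differed by far more than sampling noise (chi-square of 38.3 to 706 per gene).

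The places of the members on GRCm38 set what the counts can tell apart. Stat5b (chr11:100780731-100850724, minus strand), Stat5a (chr11:100859351-100885169, plus strand) and Stat3 (chr11:100885098-100939540, minus strand) lie side by side on chromosome 11. Stat3 and Stat5a overlap at their ends by 72 exonic bases, 0.756% of the exonic length of Stat3. STAT5A and STAT5B are close paralogs, and reads from stretches that they share may be missing from both. Socs3 (chr11:117966079-117970047, minus strand) and Osm (chr11:4236420-4241026, plus strand) are on the same chromosome far from them. Cish (chr9:107296026-107302784, plus strand) shares 7.46% of its exonic bases with the antisense gene Gm17041, and Pim1 (chr17:29490753-29496112, plus strand) shares 14.5% with the antisense gene Gm26885. The strand setting of the counting is not given in the sources used here, so reads of these pairs may not be told apart. Socs1 (chr16:10782240-10785536, minus strand), Socs2 (chr10:95385362-95417180, minus strand) and Bcl6 (chr16:23965052-23988852, minus strand) complete the list, and all 10 are protein-coding.

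STAT proteins bind the palindrome TTCNNNGAA, which reads the same on both strands. It was searched in the RefSeq promoter windows of GRCm38.p6, each running from 250 bases before a start site over 300 bases in all. Of 32851 windows, 2726 held it (8.3%), as did those of 2582 of 27025 genes (9.55%). Of the 10 members, 8 had a window (Socs2 and Osm had no entry), and 3 held the motif: Cish, Socs3 and Bcl6. The stretches around these sites are shown because they are where the letters of a STAT site stand in the members' own promoters. Capitals mark the motif, and each is written 5′ to 3′ on the strand of its gene.
Cish, both sites, chr9:107296654-107296683, plus strand: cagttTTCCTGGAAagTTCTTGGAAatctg
Socs3, chr11:117969502-117969530, minus strand: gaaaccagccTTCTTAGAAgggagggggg
Bcl6, distal start site, chr16:23988952-23988980, minus strand: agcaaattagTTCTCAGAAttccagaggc
Bcl6, proximal start site, chr16:23981433-23981461, minus strand: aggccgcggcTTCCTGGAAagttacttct
Bcl6, proximal start site, chr16:23981387-23981415, minus strand: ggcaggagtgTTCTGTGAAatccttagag
Bcl6, proximal start site, chr16:23981353-23981381, minus strand: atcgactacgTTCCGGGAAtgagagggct
The motifs of Cish began at positions 0 and 11 from the RefSeq start site, within an exon of a longer GENCODE transcript. That of Socs3 began at position -154 and lay in an intron of the gene as GENCODE vM21 draws it. The window of the distal Bcl6 start site held 1 motif at position -118, outside the annotated gene. The window of the proximal start site, which is intronic in GENCODE, held 3 motifs at positions -168, -122 and -88. Windows with 2 or more motifs made up 0.457% of all windows. A match shows only that these letters are present. The windows of Stat3, Stat5a, Stat5b, Socs1 and Pim1 did not hold these letters.

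Per kilobase of exon, Pim1 had the highest mean level of the members, at 46.95 normalized CPM per kb over the 14 libraries. Pim1 encodes a serine/threonine kinase that promotes survival and growth of blood cells. Stat5b followed at 23.6, Osm at 19.2, Stat3 at 16.1 and Stat5a at 12.5 on the same scale. Socs3 stood at 6.47, Bcl6 at 3.30 and Socs1 at 1.65. Cish and Socs2 were lowest, at 0.696 and 0.470 normalized CPM per kb. Most neighbours in this order overlapped between libraries, and Osm spread most widely, from 8.03 to 39.2 normalized CPM per kb. The neighbours that did not overlap were Pim1 (lowest library 32.4) and Stat5b (highest 27.5), Stat3 (lowest 14.3) and Stat5a (highest 13.98), and Socs1 (lowest 1.20) and Cish (highest 0.958). The 3 STAT genes had higher mean levels per length than the 4 SOCS family genes, and the other 3 members spread from the top of the order to below Socs3.

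**Figure D1:**
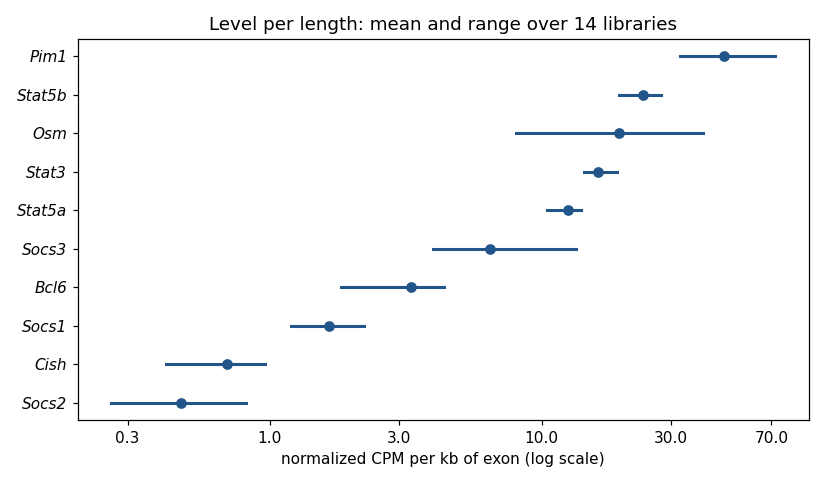
Normalized CPM per kb of exon on a log axis for the 10 genes, with points for the mean and lines from the lowest to the highest of 14 libraries. Pim1 was highest with a mean of 46.95 and Socs2 lowest with 0.470, and the line of Osm is the longest of the 5 genes with the highest means.

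The 3 STAT genes were among the steadier transcripts. Stat3 lay at 141, 138 and 145 normalized CPM in WT, at 171, 159.7, 137 and 161 in Puma-/-, at 171, 161, 147 and 145 in G3 mTerc-/-Puma+/+, and at 181, 138 and 152 in replicates 1, 3 and 4 of the double-labelled libraries. Stat5a lay at 87.2, 89.0 and 90.02 normalized CPM in WT, at 97.2, 99.8, 88.4 and 91.2 in Puma-/-, at 92.1, 82.7, 87.9 and 87.8 in G3 mTerc-/-Puma+/+, and at 94.7, 74.7 and 86.3 in replicates 1, 3 and 4 of the double-labelled libraries. Stat5b lay at 133, 125 and 143 normalized CPM in WT, at 143, 142, 123 and 127 in Puma-/-, at 136, 107, 123 and 130.3 in G3 mTerc-/-Puma+/+, and at 152, 121 and 123 in replicates 1, 3 and 4 of the double-labelled libraries. Between the lowest and the highest library Stat3 differed by a factor of 1.33, Stat5a by 1.34 and Stat5b by 1.43. Their SD of log2 CPM within genotypes was 0.133, 0.0963 and 0.140, against a median of 0.237 over all genes tested. Only 9.04% of the genes tested had a smaller within-genotype SD than Stat5a, 22.3% than Stat3 and 24.8% than Stat5b.

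None of the 3 STAT genes differed between genotypes past the threshold. Their log2 fold changes in the 6 pairs of genotypes lay between -0.14 and 0.15, with standard errors from 0.0716 to 0.110. The lowest unadjusted p among them belonged to Stat5a in the double-labelled libraries against Puma-/-, with a log2 fold change of -0.14 (SE 0.0776, unadjusted p = 0.0867, adjusted p = 0.670 from edgeR). Stat3 was the member whose libraries did not overlap in 1 pair: its lowest G3 mTerc-/-Puma+/+ library, at 145.2 normalized CPM, was just above its highest WT library, at 144.99. In that pair 4.02% of all genes tested had groups that did not overlap, and Stat3 had a log2 fold change of 0.14 (SE 0.0997, unadjusted p = 0.170, adjusted p = 0.998 from edgeR) with an exact permutation p of 0.114 (two-sided, smallest possible 0.0286). Replicate 2 of the double-labelled libraries had 153 normalized CPM of Stat3, 73.8 of Stat5a and 85.5 of Stat5b. The last 2 values were below those of each of the other 14 libraries. With it included, Stat5a against Puma-/- had a log2 fold change of -0.19 (unadjusted p = 0.0294, adjusted p = 0.567 from edgeR).

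**Figure D2:**
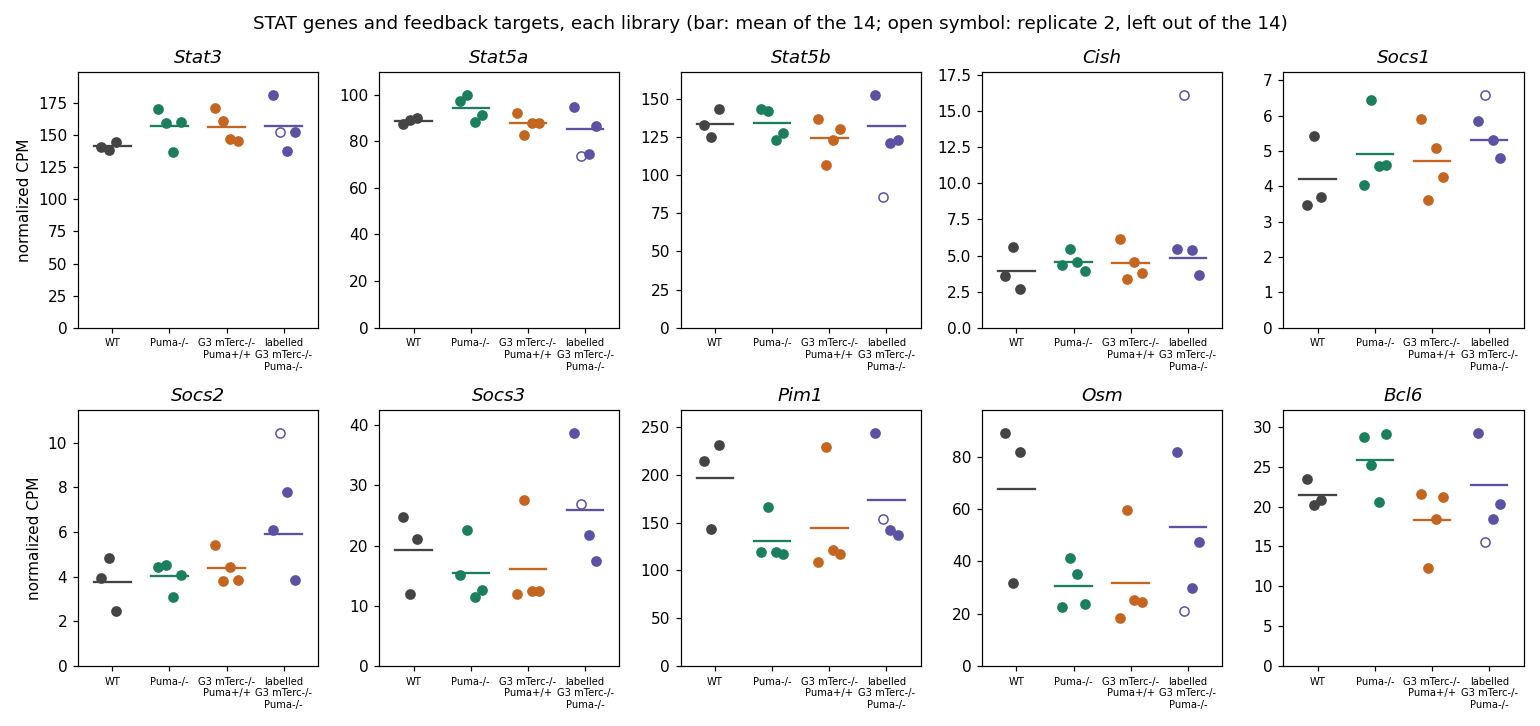
Normalized CPM of each gene in each library (points) by genotype, with a horizontal bar for the mean of each genotype over the 14 libraries tested and an open symbol for replicate 2 of the double-labelled libraries, which was not among them. The Stat3, Stat5a and Stat5b points sit close together, while Socs3, Pim1 and Osm each have a few libraries far above the rest of their genotype, and the open symbol is highest for Cish at 16.1 and Socs2 at 10.4.

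Over all members, 0 of 10 passed an adjusted p of 0.05 in any of the 6 pairs of genotypes, and the lowest adjusted p of the 60 tests was 0.197. In Puma-/- against WT, where 0.0790% of all genes tested were called, the members' median log2 fold change was 0.10, with 7 higher and 3 lower, and the median over all genes was 0.00484. In G3 mTerc-/-Puma+/+ against WT (0.0369% of genes called) the members' median was -0.06, with 4 higher and 6 lower. In the double-labelled libraries against WT (0.0632% called) it was 0.12, with 6 higher and 4 lower. G3 mTerc-/-Puma+/+ against Puma-/- had the most calls of any pair, 0.801% of genes, and a members' median of -0.02. The double-labelled libraries against Puma-/- (0.306% called) had a members’ median of 0.10. The pair that separates PUMA-deficient from PUMA-proficient telomerase-deficient cells by label had 0.0738% of genes called. There 9 of 10 members had higher fitted levels in the double-labelled libraries, with a median log2 fold change of 0.22 against -0.0147 over all genes, and the lowest adjusted p among them was 0.835. Markers of other cell types also differed in fitted level in that pair. Of 8 B cell markers 8 had higher fitted levels and 2 were called, with a median log2 fold change of 2.11 and summed levels of 60.9 to 122 against 37.7 to 50.5 normalized CPM. Of 9 late neutrophil markers 9 had higher fitted levels and 0 were called, with a median of 1.33, and their sums were 1378, 3468 and 3200 normalized CPM in replicates 1, 3 and 4 against 1151 to 2048.5. Of 8 erythroid markers 8 had higher fitted levels and 0 were called, with a median of 0.50. Of 6 megakaryocyte markers 6 had lower fitted levels and 0 were called, with a median of -0.46. None of these markers was at 0 in any library, and their part in the members' values was not tested.

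**Figure D3:**
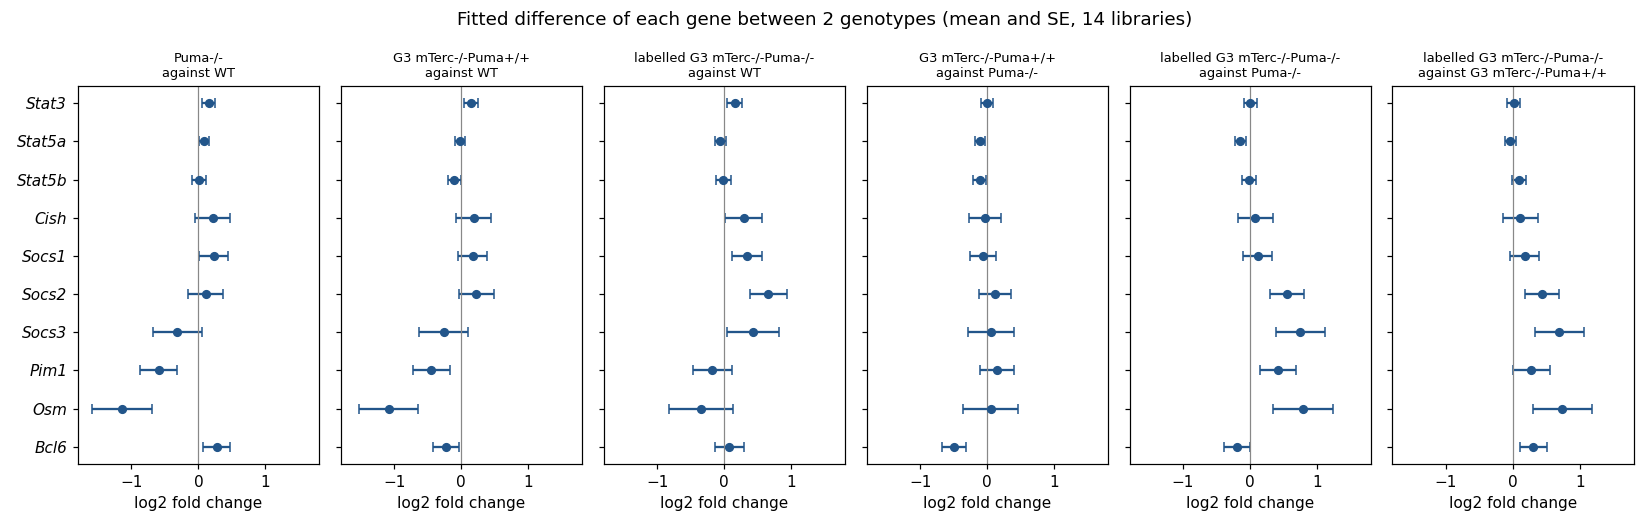
Fitted log2 fold change (points) and standard error (lines) of each gene in the 6 pairs of genotypes, 14 libraries. Points for the 3 STAT genes lie between -0.14 and 0.15 in every panel, and the points farthest from 0 are those of Osm against WT, at -1.14 and -1.09.

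At an unadjusted p under 0.05, 5 of the 60 tests counted, spread over 4 pairs. In Puma-/- against WT 2 of 10 members did so, Pim1 and Osm, where 10.1% of all genes did. In G3 mTerc-/-Puma+/+ against WT it was Osm alone, with 3.86% of genes, and in the double-labelled libraries against WT it was Socs2 alone, with 5.45% of genes. In G3 mTerc-/-Puma+/+ against Puma-/- it was Bcl6, with 17.1% of genes. None did so in the double-labelled libraries against Puma-/- (8.42% of genes) or against G3 mTerc-/-Puma+/+ (6.22% of genes). With all 15 libraries it was 3 of 10 against Puma-/-, Stat5a, Socs2 and Socs3, where 7.48% of genes did, and Socs2 alone against G3 mTerc-/-Puma+/+, where 10.2% did. Against WT it was then Cish and Socs2, where 8.80% of genes did. The interaction was taken by label. It is the difference between Puma-/- and Puma-proficient labels in the mTerc-/- libraries, minus that in the telomerase-proficient ones. Its values cannot be tied to loss of Puma in both backgrounds, because the lower Bbc3 level of Puma-/- was not seen in the double-labelled libraries. The interaction called 0 of 10 members and 0.0527% of genes. At an unadjusted p under 0.05 it held 2 members, Osm and Pim1, where 4.93% of all genes did.

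Osm encodes oncostatin M, a cytokine of the interleukin-6 family made by myeloid cells, and its gene is a known STAT5 target. Osm lay at 89.0, 31.8 and 82.0 normalized CPM in WT, at 22.5, 41.2, 35.3 and 23.6 in Puma-/-, at 18.2, 59.5, 25.2 and 24.4 in G3 mTerc-/-Puma+/+, and at 82.0, 29.6 and 47.4 in replicates 1, 3 and 4 of the double-labelled libraries. It was the member that varied most, by a factor of 4.88 from the lowest to the highest library, and 89.2% of the genes tested had a smaller within-genotype SD. In WT, replicates 1 and 3 were high and replicate 2 was low, within the range of the Puma-/- libraries. In Puma-/- against WT it had a log2 fold change of -1.14 (SE 0.445, unadjusted p = 0.0230, adjusted p = 0.437 from edgeR), and the exact permutation p was 0.143. In G3 mTerc-/-Puma+/+ against WT it had a log2 fold change of -1.09 (SE 0.445, unadjusted p = 0.0288, adjusted p = 0.998 from edgeR), with an exact permutation p of 0.143. These comparisons share the WT libraries. The interaction gave Osm a log2 fold change of 1.88 (SE 0.629, unadjusted p = 0.0101, adjusted p = 0.786 from edgeR). Replicate 2 of the double-labelled libraries had 21.2 normalized CPM, the lowest of that group.

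Pim1 lay at 215, 144 and 232 normalized CPM in WT, at 119, 166, 119.5 and 117 in Puma-/-, at 109, 229, 121 and 117 in G3 mTerc-/-Puma+/+, and at 243, 142 and 137 in replicates 1, 3 and 4 of the double-labelled libraries. In WT 2 of 3 libraries were high, and each other genotype had a single library well above its others. The library kept apart, replicate 2 of the double-labelled libraries, had 154 normalized CPM. In Puma-/- against WT it had a log2 fold change of -0.59 (SE 0.275, unadjusted p = 0.0497, adjusted p = 0.492 from edgeR), and the exact permutation p was 0.0857. Left-out libraries moved this log2 fold change between -0.78 and -0.46. In the interaction Pim1 had a log2 fold change of 0.86 (SE 0.389, unadjusted p = 0.0441, adjusted p = 0.989 from edgeR).

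Socs3 encodes the inhibitor that is induced by STAT3 and blocks the gp130 and G-CSF receptors. It lay at 24.7, 12.04 and 21.1 normalized CPM in WT, at 15.1, 22.6, 11.5 and 12.6 in Puma-/-, at 11.9, 27.6, 12.4 and 12.4 in G3 mTerc-/-Puma+/+, and at 38.6, 21.7 and 17.5 in replicates 1, 3 and 4 of the double-labelled libraries. In replicate 2 of the double-labelled libraries it was at 26.9. All libraries of that label were at 17.5 or more. In Puma-/- and in G3 mTerc-/-Puma+/+ 3 of 4 libraries were at 15.1 or less, but the highest libraries of those genotypes reached 22.6 and 27.6, so the groups overlapped. Against Puma-/- it had a log2 fold change of 0.75 (SE 0.364, unadjusted p = 0.0596, adjusted p = 0.615 from edgeR), and against G3 mTerc-/-Puma+/+ a log2 fold change of 0.69 (SE 0.364, unadjusted p = 0.0788, adjusted p = 0.835 from edgeR). The exact permutation p was 0.143 and 0.2. Without replicate 1 of the double-labelled libraries, at 38.6 its highest library, the log2 fold changes were 0.34 and 0.29. With replicate 2 of the double-labelled libraries included, the log2 fold change against Puma-/- was 0.76 (unadjusted p = 0.0393, adjusted p = 0.620 from edgeR).

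Osm, Pim1 and Socs3 were high in much the same libraries, which for Osm and Pim1 came from 3 of the 4 genotypes. The immediate early genes Fos, Fosb, Egr1, Jun, Ier2, Atf3, Nr4a1 and Dusp1 are transcribed within minutes of a stimulus or of handling. Among the 14 libraries tested they were high where Osm and Pim1 were high, and less closely so for Socs3. Their summed level was highest in WT replicate 3 (5067 normalized CPM), WT replicate 1 (4708), replicate 1 of the double-labelled libraries (4689) and G3 mTerc-/-Puma+/+ replicate 2 (3605). The other 10 libraries tested lay between 1256 and 2839, and replicate 2 of the double-labelled libraries at 1159.8. Of the 14 libraries tested, the 4 with the highest immediate early level were also the 4 with the highest Osm, at 59.5 normalized CPM or more against at most 47.4 in the rest. They were the 4 with the highest Pim1 too, at 215 or more against at most 166. Of the 4, 3 were among the 4 libraries with the highest Socs3, which also held Puma-/- replicate 2, at 22.6 normalized CPM. WT replicate 3, with the highest immediate early level, had rank 6 for Socs3. Replicate 2 of the double-labelled libraries, with the lowest immediate early level of all libraries, had Socs3 at 26.9 and Pim1 at 154 normalized CPM.

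In the 3 comparisons against WT, 7 or 8 of the 8 immediate early genes had lower fitted levels than in WT, and none passed an adjusted p of 0.05. Their median log2 fold change against WT was -0.91 for Puma-/-, -1.05 for G3 mTerc-/-Puma+/+ and -0.41 for the double-labelled libraries. In the double-labelled libraries 8 of 8 had higher fitted levels than in G3 mTerc-/-Puma+/+ (median 0.52), and 7 of 8 than in Puma-/- (median 0.46). In G3 mTerc-/-Puma+/+ against Puma-/- 3 were higher and 5 lower (median -0.04). In the interaction 8 of 8 were above 0 (median 1.31). Of the 8, 0 were called in any of these. With the summed immediate early level as a covariate, a fit chosen after seeing the data, the log2 fold change of Osm was -0.36 in Puma-/- against WT and -0.27 in G3 mTerc-/-Puma+/+ against WT. That of Pim1 in Puma-/- against WT was -0.17, and the interaction was 0.74 for Osm and 0.21 for Pim1. The unadjusted p was 0.0534 for Osm and 0.144 for Pim1 in Puma-/- against WT, and 0.00904 for the interaction of Osm (adjusted p = 0.9998 from edgeR). For Osm in G3 mTerc-/-Puma+/+ against WT the unadjusted p was 0.150, and for the interaction of Pim1 it was 0.214 (both from edgeR). Osm in the double-labelled libraries against G3 mTerc-/-Puma+/+ then had 0.38 (unadjusted p = 0.0322, adjusted p = 0.542 from edgeR), where the fit without the covariate gave 0.74 (unadjusted p = 0.120). Socs3 in the double-labelled libraries then had 0.50 against Puma-/- (unadjusted p = 0.0124, adjusted p = 0.409 from edgeR). Against G3 mTerc-/-Puma+/+ Socs3 had 0.39 (unadjusted p = 0.0464, adjusted p = 0.595 from edgeR). The fit without the covariate gave Socs3 larger fold changes with higher unadjusted p in both pairs (0.0596 and 0.0788 from edgeR).

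**Figure D4:**
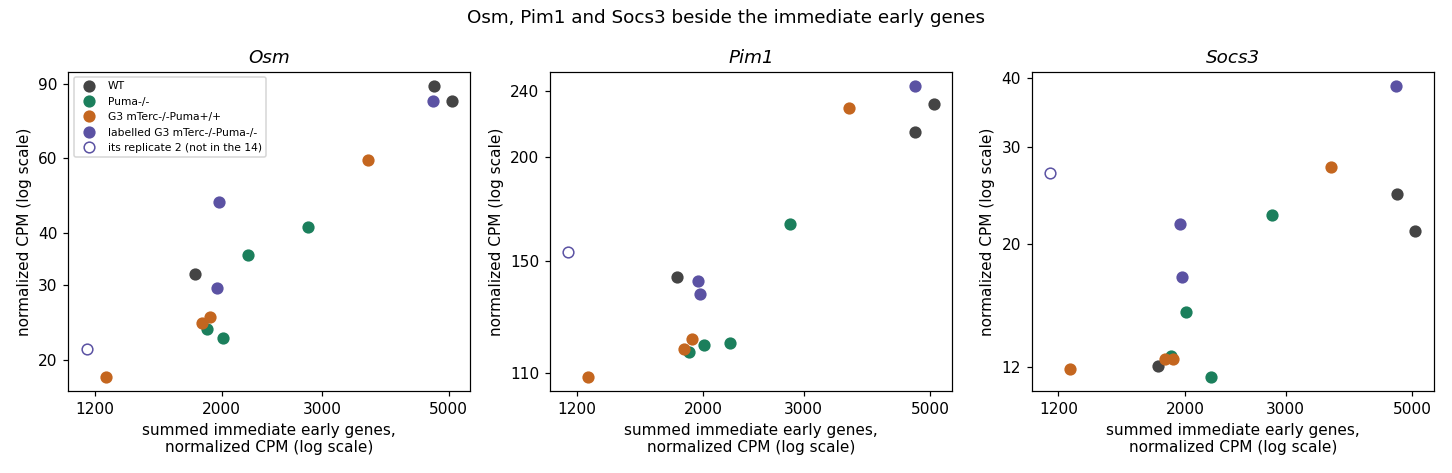
Normalized CPM of Osm, Pim1 and Socs3 in each library against the summed normalized CPM of 8 immediate early genes, both on log axes, coloured by genotype, with an open symbol for replicate 2 of the double-labelled libraries. The 4 libraries with the highest immediate early level, from 3 genotypes, are the 4 highest for Osm and for Pim1, and for Socs3 the open symbol stands well above the libraries near it on the horizontal axis.

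The genes most like Osm, Socs3 and Pim1 in pattern were taken as those with the smallest root mean square difference of log2 CPM over the 14 libraries, each gene centred on its own mean. For Osm these were Plk3, a polo-like kinase of the stress response, at 0.18, Jund, a subunit of the AP-1 factor, at 0.21, and Rgs1, a regulator of G protein signaling, at 0.26. In this order over all genes tested Pim1 had rank 26 and Socs3 rank 54. For Socs3 they were the chemokine gene Cxcl10 at 0.22, Pim1 at 0.26 and Irf2bpl at 0.28. For Pim1 they were Pnrc1 at 0.15, Tnfrsf12a, the receptor of the cytokine TWEAK, at 0.17, and the histone H3.3 gene H3f3b at 0.18. The order is not the same from each gene: Osm had rank 1937 in the order of Pim1 and 368 in that of Socs3, and Socs3 had rank 80 in that of Pim1. These are descriptions over 14 libraries that share their genotypes and their depth.

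Cish and Socs2 encode SOCS proteins induced mainly through STAT5, acting on the erythropoietin and growth hormone receptors among others. Cish lay at 3.61, 5.56 and 2.67 normalized CPM in WT, at 4.35, 5.44, 4.56 and 3.94 in Puma-/-, at 6.15, 3.40, 4.57 and 3.78 in G3 mTerc-/-Puma+/+, and at 5.47, 5.39 and 3.64 in replicates 1, 3 and 4 of the double-labelled libraries. Socs2 lay at 3.93, 4.84 and 2.49 normalized CPM in WT, at 4.45, 4.54, 3.11 and 4.08 in Puma-/-, at 5.43, 3.81, 4.46 and 3.84 in G3 mTerc-/-Puma+/+, and at 6.09, 7.81 and 3.86 in replicates 1, 3 and 4 of the double-labelled libraries. All genotypes overlapped for both genes. Socs2 in the double-labelled libraries against WT had a log2 fold change of 0.66 (SE 0.277, unadjusted p = 0.0334, adjusted p = 0.842 from edgeR), and the exact permutation p was 0.3, where 0.1 is the smallest that 3 against 3 libraries allow. Without replicate 3 of the double-labelled libraries its log2 fold change was 0.41, and without replicate 4 it was 0.89. Cish in the same pair had a log2 fold change of 0.29 (SE 0.277, unadjusted p = 0.310, adjusted p = 0.9998 from edgeR).

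Both genes were highest in replicate 2 of the double-labelled libraries, at 16.1 normalized CPM for Cish and 10.4 for Socs2. With that library included, Cish against WT had a log2 fold change of 0.95 (SE 0.426, unadjusted p = 0.0423, adjusted p = 0.541 from edgeR). Socs2 then had 0.91 against WT (SE 0.301, unadjusted p = 0.00936, adjusted p = 0.410 from edgeR) and 0.68 against G3 mTerc-/-Puma+/+ (unadjusted p = 0.0261, adjusted p = 0.411 from edgeR). Against Puma-/- Socs2 went from 0.55 (unadjusted p = 0.0512) to 0.80 (unadjusted p = 0.0114, adjusted p = 0.424 from edgeR). The same library had the highest summed level of 8 erythroid markers, among them Gata1, Klf1 and Alas2, at 949 normalized CPM. In the other 14 libraries the sum lay between 32.8 and 151, and none of the 8 markers was at 0 in any library. Its sum of 9 late neutrophil markers was also the highest, at 4546 normalized CPM against 353 to 3468 elsewhere. In bulk libraries fewer or more cells of a type and less or more RNA per cell cannot be told apart. With all 15 libraries and the erythroid sum as a covariate, a fit chosen after seeing the data, the log2 fold change against WT was 0.02 for Cish and 0.52 for Socs2. Replicate 2 of the double-labelled libraries holds by far the highest value of this covariate. The fit thus cannot separate the erythroid level from other traits of that library.

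**Figure D5:**
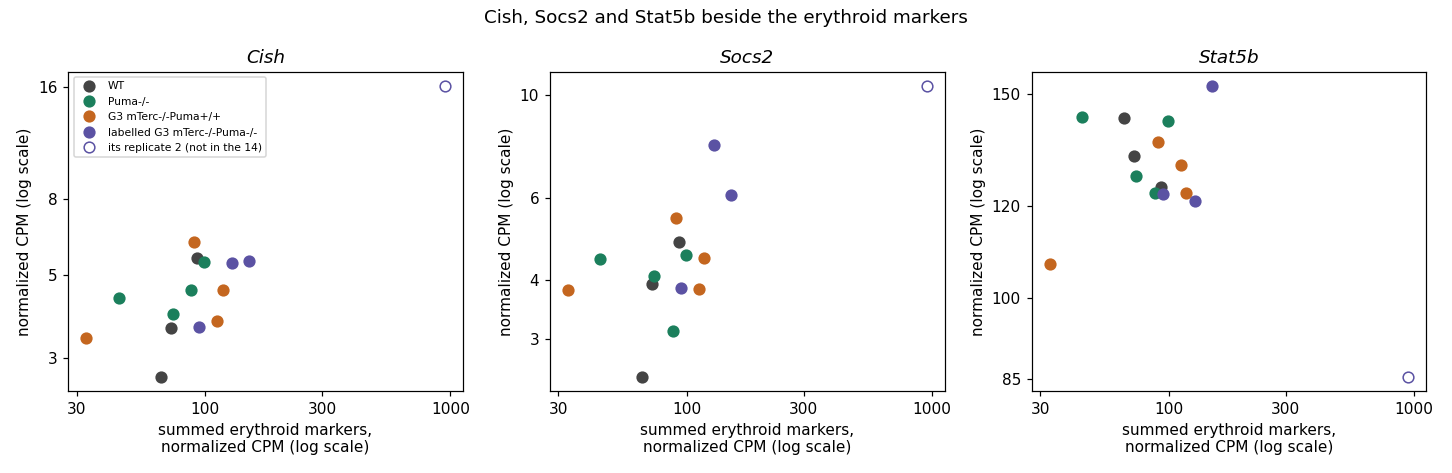
Normalized CPM of Cish, Socs2 and Stat5b in each library against the summed normalized CPM of 8 erythroid markers, both on log axes, coloured by genotype. Replicate 2 of the double-labelled libraries (open symbol, marker sum 949) has the highest Cish (16.1) and Socs2 (10.4) and the lowest Stat5b (85.5).

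Socs1 encodes the inhibitor of Janus kinases that is strongest in interferon signaling. It lay at 3.48, 5.41 and 3.70 normalized CPM in WT, at 4.02, 6.44, 4.58 and 4.61 in Puma-/-, at 5.91, 3.61, 5.09 and 4.25 in G3 mTerc-/-Puma+/+, and at 5.83, 5.30 and 4.81 in replicates 1, 3 and 4 of the double-labelled libraries. The fitted differences ran from -0.06 to 0.34 on the log2 scale over the 6 pairs, and in the double-labelled libraries against WT it had a log2 fold change of 0.34 (SE 0.228, unadjusted p = 0.159, adjusted p = 0.9998 from edgeR). Replicate 2 of that label, at 6.58 normalized CPM, was the highest of the 15 libraries for Socs1.

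Bcl6 encodes a zinc finger repressor whose gene STAT5 represses in several lymphoid and myeloid settings and which competes with STAT factors for related sites. It lay at 23.4, 20.2 and 20.8 normalized CPM in WT, at 28.7, 25.2, 20.6 and 29.1 in Puma-/-, at 21.5, 12.3, 18.4 and 21.2 in G3 mTerc-/-Puma+/+, and at 29.2, 18.4 and 20.3 in replicates 1, 3 and 4 of the double-labelled libraries. In 3 of 4 Puma-/- libraries it was above each WT and each G3 mTerc-/-Puma+/+ library, and the fourth, at 20.6, was not. G3 mTerc-/-Puma+/+ against Puma-/- gave a log2 fold change of -0.50 (SE 0.184, unadjusted p = 0.0178, adjusted p = 0.197 from edgeR), the lowest adjusted p of any member in any pair, and the exact permutation p was 0.0857. In replicate 2 of the double-labelled libraries it was at 15.6. Without G3 mTerc-/-Puma+/+ replicate 2, its lowest library at 12.3 normalized CPM, the log2 fold change was -0.34. The Xist level differed between these genotypes without overlap, as given above. With Xist added to the fit as a covariate, an alternative chosen once the data had been seen, the log2 fold change was -0.26. Its adjusted p was 0.693 from edgeR. This fit cannot separate the Xist level from genotype in this pair. In the same pair 0.801% of all genes tested were called. There 8 of 8 B cell markers had lower fitted levels and 2 were called, with a median of -1.06 and sums of 37.7 to 50.5 against 64.4 to 74.5 normalized CPM. Of 6 megakaryocyte markers 6 had lower fitted levels and 4 were called, with a median of -1.35 and sums of 172 to 236 against 357 to 582 normalized CPM. Their part in the Bcl6 values was not tested.

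The wider pathway was read from 7 lists of Janus kinases, other STAT genes, receptors, ligands, negative regulators and targets. Of their 80 genes, 75 were tested. In the 4 pairs other than the comparisons of an mTerc-/- genotype with Puma-/-, 0 of 75 passed an adjusted p of 0.05. In each of the comparisons with Puma-/- 1 of 75 passed, and it was Il5ra both times, lower in the mTerc-/- libraries. Of all genes tested, 0.801% passed in G3 mTerc-/-Puma+/+ against Puma-/- and 0.306% in the double-labelled libraries against Puma-/-. In the double-labelled libraries against G3 mTerc-/-Puma+/+, 53 of the 75 had higher and 22 lower fitted levels, and 7 and 2 of them had an unadjusted p under 0.05, that is, 9 of 75 where 6.22% of all genes did. In G3 mTerc-/-Puma+/+ against Puma-/- the split was 31 higher and 44 lower, with 4 and 6 at that level, that is, 10 of 75 where 17.1% of all genes did. None of the 4 Janus kinase genes, the 4 other STAT genes, the 12 receptors coupled mainly to STAT3, the 8 ligands, the 14 other negative regulators or the 20 other targets passed in any pair.

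Il5ra encodes the interleukin-5 receptor alpha chain, which marks eosinophil progenitors and signals largely through STAT5. Il5ra was scarce, with 22 to 99 counts in the 14 libraries, and lay at 0.661, 0.718, 0.651 and 0.897 normalized CPM in Puma-/-. It lay at 0.325, 0.343 and 0.291 in WT, at 0.307, 0.245, 0.450 and 0.353 in G3 mTerc-/-Puma+/+, and at 0.219, 0.246 and 0.172 in replicates 1, 3 and 4 of the double-labelled libraries. Each Puma-/- library was above each of these other libraries. The share of all genes tested that separated in this way was not taken for these pairs. The comparisons of Il5ra given here all use the same Puma-/- libraries. Against Puma-/-, Il5ra had a log2 fold change of -1.11 (SE 0.218, unadjusted p = 0.000185, adjusted p = 0.0429 from edgeR) in G3 mTerc-/-Puma+/+ and a log2 fold change of -1.78 (SE 0.247, unadjusted p = 5.46e-06, adjusted p = 0.00594 from edgeR) in the double-labelled libraries. Puma-/- against WT gave a log2 fold change of 1.19 (SE 0.241, unadjusted p = 0.000234, adjusted p = 0.185 from edgeR). Replicate 2 of the double-labelled libraries had 0.671 normalized CPM, within the Puma-/- range. With it included, neither comparison with Puma-/- passed (adjusted p = 0.238 and 0.331 from edgeR). The summed level of 5 basophil and mast cell markers lay at 2387 to 3845 normalized CPM in Puma-/- and at 1246 to 3423 in the other libraries tested, and its part in the Il5ra values was not tested. With Xist as a covariate the adjusted p from edgeR was 0.213 in G3 mTerc-/-Puma+/+ and 0.0244 in the double-labelled libraries. The Xist ranges of G3 mTerc-/-Puma+/+ and Puma-/- did not overlap, so in that pair the fit cannot separate the Xist level from genotype.

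Of the other pathway genes named here, none passed the adjusted threshold. Prlr, the prolactin receptor gene, lay at 0.110 to 0.274 normalized CPM in G3 mTerc-/-Puma+/+, below each Puma-/- library (0.508 to 0.930), with a log2 fold change of -1.92 (SE 0.443, unadjusted p = 0.00074, adjusted p = 0.0584 from edgeR). Against WT its log2 fold change was -2.08 (adjusted p = 0.374 from edgeR), and between the double-labelled libraries and G3 mTerc-/-Puma+/+ it was 1.503 (adjusted p = 0.436 from edgeR). Mcl1, an antiapoptotic STAT target, had a log2 fold change of -0.50 (SE 0.169, unadjusted p = 0.0102, adjusted p = 0.398 from edgeR) in Puma-/- against WT, where WT replicates 1 and 3 were again the high libraries, at 409 and 414 normalized CPM. Il21r, the interleukin-21 receptor gene, was 0.32 higher on the log2 scale both in G3 mTerc-/-Puma+/+ and in the double-labelled libraries against WT (adjusted p = 0.998 and 0.698 from edgeR). The ligand genes Il10 and Il21 were scarce. Il10 lay at 0.0750 to 0.284 normalized CPM in G3 mTerc-/-Puma+/+ and at 1.40, 1.098 and 0.148 in replicates 1, 3 and 4 of the double-labelled libraries (adjusted p = 0.273 from edgeR). Il21 had 1 or 2 counts in each WT library and 8 to 105 in the double-labelled libraries tested (adjusted p = 0.608 from edgeR). It had 1 to 56 counts in Puma-/- and 0 to 28 in G3 mTerc-/-Puma+/+.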

How the data were processed

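RNA from lineage-negative bone marrow cells was sequenced from 15 libraries of 4 genotypes, grouped by the labels. The authors trimmed reads with Trimmomatic (0.38), aligned them with STAR (2.5.2b) to GRCm38 and deposited raw counts per gene, and the annotation release and strand setting are not given in the sources used here. Poly(A) selection and depth set which transcripts could be counted.

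The 10 members and all lists were chosen with earlier results of these data known. Gene identifiers were matched to GENCODE vM21 for symbols, places and exonic lengths. Genes kept by filterByExpr (18983 of 45706) were fitted in edgeR (4.0.16, R 4.3.3) with trimmed-mean factors (0.926 to 1.07), genotype as the only term and 14 libraries in 1 fit, and tested by the quasi-likelihood test at an adjusted p of 0.05. Standard errors were derived from the F statistic. Normalized CPM used the effective library sizes, and log2 CPM a prior count of 2. Single genes were also tested by exact two-sided permutation of log2 CPM. The script was tested on simulated data. All members were named, as was any pathway gene that was called and, in each pair, the 2 with the lowest unadjusted p. Of these, 1 gene is not reported here. For the 3 members with the largest SD, the 3 genes most alike were named. Alternatives were all 15 libraries, library size alone, DESeq2 (1.42.0), limma-voom (3.58.1), 2 other count filters, the 2 genotypes alone, a replicate block, each library left out, and 3 covariate fits added after seeing the data. Whether equal replicate numbers pair libraries was checked by correlating deviations from the group means: of 18 pairs, 3 exceeded 0.1 (range -0.252 to 0.177), so the numbers were taken as names only.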

Additional observations from a re-analysis of the deposited data

Results flagged for a closer look

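In groups of 4 libraries, all 15 included, a library was singled out where its gap to the nearest other, divided by the whole range of the group, exceeded Dixon's critical value, and chance does so in about 1 in 20 groups. Of 30 groups examined, 6 met this. Cish in replicate 2 of the double-labelled libraries was at 16.1 normalized CPM, where the nearest library was at 5.47. Socs3 in G3 mTerc-/-Puma+/+ replicate 2 was at 27.6, with the nearest at 12.4. Osm in the same library was at 59.5, with the nearest at 25.2, and Pim1 in it was at 229, with the nearest at 121. Pim1 in Puma-/- replicate 2 was at 166, with the nearest at 119.5. Pim1 in replicate 1 of the double-labelled libraries was at 243, with the nearest at 154. The immediate early sum of G3 mTerc-/-Puma+/+ replicate 2 was 3605 normalized CPM, where the others of that genotype were at 1907 or less, and its part in these values was not tested.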

How the results depend on the processing

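No member was called in any of the 7 comparisons, the interaction included, in the fit of 14 libraries. The same held under 25 alternative settings, which gave 174 results over these comparisons. Among them the lowest adjusted p of a member was 0.104. The replicate block called 0 members in each comparison. It lowered the number of all genes called from 152 to 43 in G3 mTerc-/-Puma+/+ against Puma-/- and from 58 to 21 in the double-labelled libraries against Puma-/-. Directions changed in the comparison of the double-labelled libraries with G3 mTerc-/-Puma+/+. With all 15 libraries Stat3 was at -0.00279 and Stat5b at -0.0442, and with the erythroid covariate added Cish was at -0.164. Stat3 was at -0.00963 with the Xist covariate and at -0.0235 with the immediate early covariate. Leaving out 1 library moved Stat3 between -0.107 and 0.0956, Stat5a between -0.123 and 0.0471, Stat5b between -0.0248 and 0.149, Cish between -0.00811 and 0.310 and Pim1 between -0.0503 and 0.582. With all 15 libraries the sign also turned for Bcl6 against WT (0.08 to -0.04), for Stat3 against Puma-/- (0.00177 to -0.00918) and in the interaction for Cish (-0.10 to 0.56), Stat5b (0.08 to -0.05), Bcl6 (0.03 to -0.08) and Socs1 (-0.05 to 0.03). The cause was not tested. The call of Il5ra in G3 mTerc-/-Puma+/+ against Puma-/- was lost with all 15 libraries (adjusted p = 0.238 from edgeR), no count filter (0.0574), the 2 genotypes alone (0.0724), the replicate block (0.0903) and the Xist covariate (0.213), and stayed in 4 of 14 fits without 1 library (0.0386 to 0.113), those without WT replicate 2 or 3, Puma-/- replicate 3 or double-labelled replicate 3. Against Puma-/- in the double-labelled libraries it was lost with all 15 libraries alone among the alternatives run (0.331). It could not be tested at 1 CPM in 3 libraries. Without WT replicate 3 Prlr was called in G3 mTerc-/-Puma+/+ against WT (0.0447) and against Puma-/- (0.0197), and DESeq2 called it in both. Apart from the fits without 1 library, the number of all genes called ranged over the alternatives from 11 to 137 in Puma-/- against WT (15 in the fit reported), 3 to 46 in G3 mTerc-/-Puma+/+ against WT (7), 5 to 89 in the double-labelled libraries against WT (12), 18 to 1004 in G3 mTerc-/-Puma+/+ against Puma-/- (152), 21 to 287 in the double-labelled libraries against Puma-/- (58), 2 to 172 against G3 mTerc-/-Puma+/+ (14) and 5 to 64 in the interaction (10), with DESeq2 highest each time.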
